A study of Rattus norvegicus with 8 samples.

Results

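The genes described here mark T cells, above all the helper and regulatory kinds: Cd3e, Cd3g, Cd3d, Cd4, Cd5, Cd28, Ctla4, Icos, Foxp3 and Gata3. They are the 10 rows of the deposited table, out of 32623 genes, whose gene name equals one of these symbols, and each symbol had 1 row. They were read in lung tissue of rats (Rattus norvegicus) in 2 groups of 4 libraries. The first group is MCT, from rats given monocrotaline, a plant alkaloid that injures the vessels of the lung and is used to model pulmonary hypertension, and the second is control. The labels give no strain, sex, age, dose, time after treatment or vehicle, and whether each library is 1 animal is not said there, so every p-value speaks only of how far these 8 libraries scatter, some of which may be technical. The labels also give no cell sort, so every value is an average over all cells of the tissue: fewer cells of a type and less RNA per cell cannot be told apart.

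A T cell carries a receptor for peptides that cannot signal by itself. It does so through the CD3 chains epsilon, gamma and delta, which sit beside it in the membrane and hold the motifs that kinases phosphorylate. Helper T cells also carry CD4, which binds MHC class II on the presenting cell. A second signal comes through CD28 and ICOS, while CTLA-4 takes the ligands of CD28 and restrains the response, and it is abundant on regulatory T cells, whose defining transcription factor is FOXP3. GATA3 directs T cell development and the Th2 fate.

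The libraries stood for 11.2 to 17.9 M read pairs in the MCT group and 10.7 to 14.6 M in the control group. The members were low in abundance: between 4 read pairs (Cd28) and 398 (Cd4) in a library. The tissue label was checked against 10 markers of the alveoli, whose summed level was 22600 to 28200 FPKM in MCT and 30600 to 38800 FPKM in control libraries (fragments counted per transcript length and sequencing depth, a level comparable between genes). The libraries MCT 1 and control 1 stood apart from the rest on the second principal component (77.2 and 24.8, against -36.9 to -4.5), and they had the highest airway epithelial scores (mean log2 CPM, counts scaled to library size) of their groups, 7.07 and 6.6. Control 3 stood apart in another way. It had the highest control FPKM for 9 of the 10 members, all except Gata3, and its score of 18 other genes of T cell receptor signalling was 3.32, against 2.48 to 2.78 in the other control libraries and 2.94 to 3.12 in the MCT libraries. Its B cell score was also the highest of all 8 libraries, at 3.66 against 2.04 to 3.08 in the others.

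Of the 10 members, 1 was higher in MCT lungs (Cd3g), 1 was lower (Gata3) and 8 did not pass an adjusted p of 0.05 in edgeR's quasi-likelihood test with Benjamini-Hochberg adjustment over all 16715 genes tested. All 10 passed the filter on low counts. Among all genes tested, 11.0% were called higher, 9.45% lower and 20.5% in either direction, so the count of members called was near the background. The median log2 fold change was 0.07 over the members and 0.03 over all genes tested, and 7 of the 10 members were above 0, against 52.4% of all genes. By unadjusted p, 3 members were under 0.05, the third being Cd4. With MCT 1 and control 1 both left out, 1 member was higher and 0 lower.

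**Figure D1:**
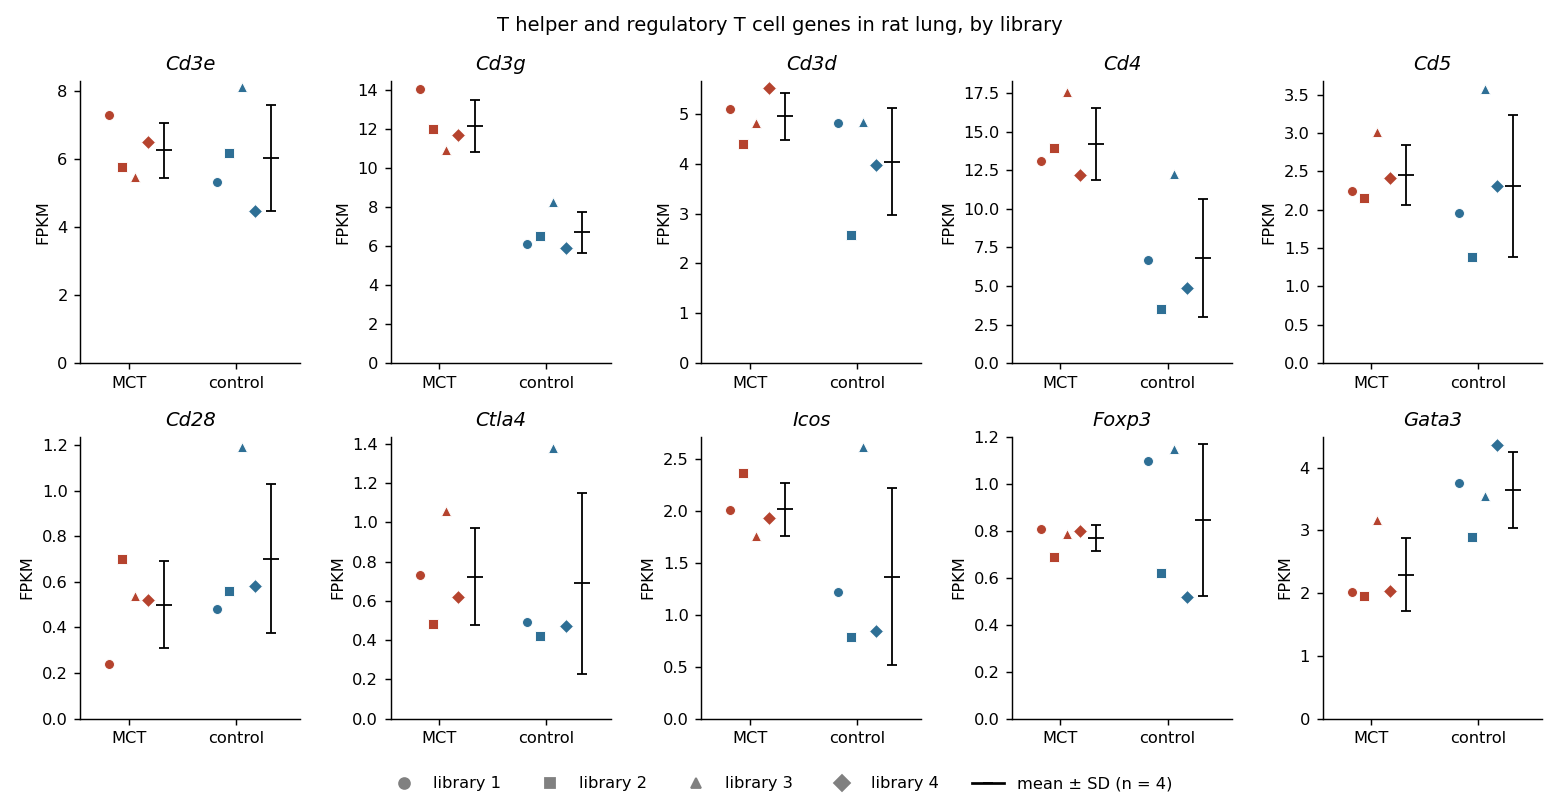
FPKM of each of the 10 genes in the 4 MCT and 4 control libraries; marker shape gives the library number, and the bar beside each group is the mean ± SD (n = 4). Cd3g is the gene whose groups do not overlap, and the triangle of control 3 is the highest control point for every gene except Gata3.

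The 3 CD3 genes form 1 cluster on chromosome 8 of Rnor_6.0, the build of the deposited positions, within 49274960 to 49308806. Cd3g (ENSRNOG00000015945) lies on the minus strand from 49274960 to 49280901, Cd3d (ENSRNOG00000015994) on the plus strand from 49282460 to 49287110 and Cd3e (ENSRNOG00000016069) on the minus strand from 49297608 to 49308806. Cd3g and Cd3d are therefore transcribed away from each other, with 1558 bases between them. No other gene of the table overlaps any of the 3. Their promoter windows are shown because these neighbours encode chains of the same receptor complex and 1 of them was called. Each runs from 250 bases before to 50 bases after a RefSeq transcript start (build GRCr8) and reads 5′ to 3′ on the gene's strand. Capitals mark matches, on either strand, to GATAA (GATA factors), CCGGAA or CAGGAA (ETS factors), TCAAAG (TCF and LEF factors), CAGCTG (an E-box) or TGACGT (CREB and related factors).
Cd3g, chr8:54183869-54184168, minus strand: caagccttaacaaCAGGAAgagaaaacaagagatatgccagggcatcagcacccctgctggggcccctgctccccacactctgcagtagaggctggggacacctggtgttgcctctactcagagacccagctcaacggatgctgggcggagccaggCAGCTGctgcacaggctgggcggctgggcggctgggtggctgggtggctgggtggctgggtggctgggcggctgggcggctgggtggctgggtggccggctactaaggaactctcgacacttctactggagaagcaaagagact
Cd3d, chr8:54185269-54185568, plus strand: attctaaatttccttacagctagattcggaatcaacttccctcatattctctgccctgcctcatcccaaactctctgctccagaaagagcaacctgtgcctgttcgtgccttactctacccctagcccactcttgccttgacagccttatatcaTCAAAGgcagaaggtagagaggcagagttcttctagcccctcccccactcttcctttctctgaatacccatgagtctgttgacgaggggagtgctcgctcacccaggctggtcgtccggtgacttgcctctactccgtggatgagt
Cd3e, chr8:54211721-54212020, minus strand: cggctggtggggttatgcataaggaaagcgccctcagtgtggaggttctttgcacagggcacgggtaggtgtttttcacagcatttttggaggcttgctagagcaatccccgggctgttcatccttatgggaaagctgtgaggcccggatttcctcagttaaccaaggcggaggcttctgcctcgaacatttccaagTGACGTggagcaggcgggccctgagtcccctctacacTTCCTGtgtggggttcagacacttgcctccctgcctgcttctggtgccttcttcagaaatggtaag

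The Cd3g window held CAGGAA, which 29.1% of 33469 promoter windows in the table hold, and CAGCTG, which 15.1% hold. Its part before the transcript start repeats the letters ggctggg. The Cd3d window held TCAAAG (16.1% of windows), and that of Cd3e held TGACGT (7.94%) and TTCCTG, the reverse complement of CAGGAA. None of the matches in these 3 windows overlapped another. Such matches describe the letters only.

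Cd3g, the gamma chain, rose. It had 14.04, 11.99, 10.95 and 11.67 FPKM in MCT libraries 1 to 4, against 6.11, 6.54, 8.25 and 5.89 FPKM in control libraries 1 to 4. Every MCT library lay above every control library, which held in this direction for 13.3% of all genes tested (11.7% in the other direction, 25.0% in either). The means were 12.2 ± 1.33 FPKM in MCT and 6.70 ± 1.07 FPKM in control lungs (SD, n = 4 each). The log2 fold change was 0.86 (SE 0.18, 95% interval 0.45 to 1.27, edgeR adjusted p 0.0109), a fold of 1.81. It rested on 40 to 134 read pairs per library.

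Cd3e, the epsilon chain, pairs with both the gamma and the delta chain in the complex. Its level was 7.28, 5.76, 5.47 and 6.51 FPKM in MCT libraries 1 to 4, against 5.33, 6.17, 8.11 and 4.46 FPKM in control libraries 1 to 4. The groups overlapped throughout, and the highest and the lowest of the 8 values were both control libraries. The log2 fold change was 0.05 (SE 0.21, 95% interval -0.41 to 0.52, edgeR adjusted p 0.892), so the interval leaves room for a fold of 0.75 to 1.43.

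Cd3d, the delta chain, had 5.09, 4.39, 4.82 and 5.51 FPKM in MCT libraries 1 to 4, against 4.81, 2.56, 4.83 and 3.97 FPKM in control libraries 1 to 4. Control 1 and control 3 lay within the MCT range, and control 2 and control 4 lay below it. The log2 fold change was 0.29 (SE 0.25, 95% interval -0.26 to 0.84, edgeR adjusted p 0.457).

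Set against Cd3e in the same library, Cd3g stood at 1.93, 2.08, 2.0 and 1.79 in MCT libraries 1 to 4, against 1.15, 1.06, 1.02 and 1.32 in control libraries 1 to 4. These ratios of FPKM averaged 1.95 ± 0.123 in MCT and 1.14 ± 0.134 in control lungs (SD, n = 4 each) and did not overlap. The same separation upwards was found for 4.65% of all genes tested when each was divided by Cd3e (5.62% downwards, 10.3% in either direction). Within the groups the pair moved together: deviations from the group means of log2 CPM had a Pearson correlation of 0.94 between Cd3e and Cd3g over the 8 libraries, the highest among all pairs of members. Between Cd3e and Cd3d it was 0.19. Cd3d over Cd3e was 0.797 ± 0.0823 in MCT and 0.701 ± 0.238 in control lungs, with overlap. Cd3g over Cd3d overlapped too, at 2.12 to 2.76 in MCT and 1.27 to 2.55 in control libraries, so a difference in response between Cd3g and Cd3d was not shown. The sources used here do not say how reads shared by related genes were assigned.

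**Figure D2:**
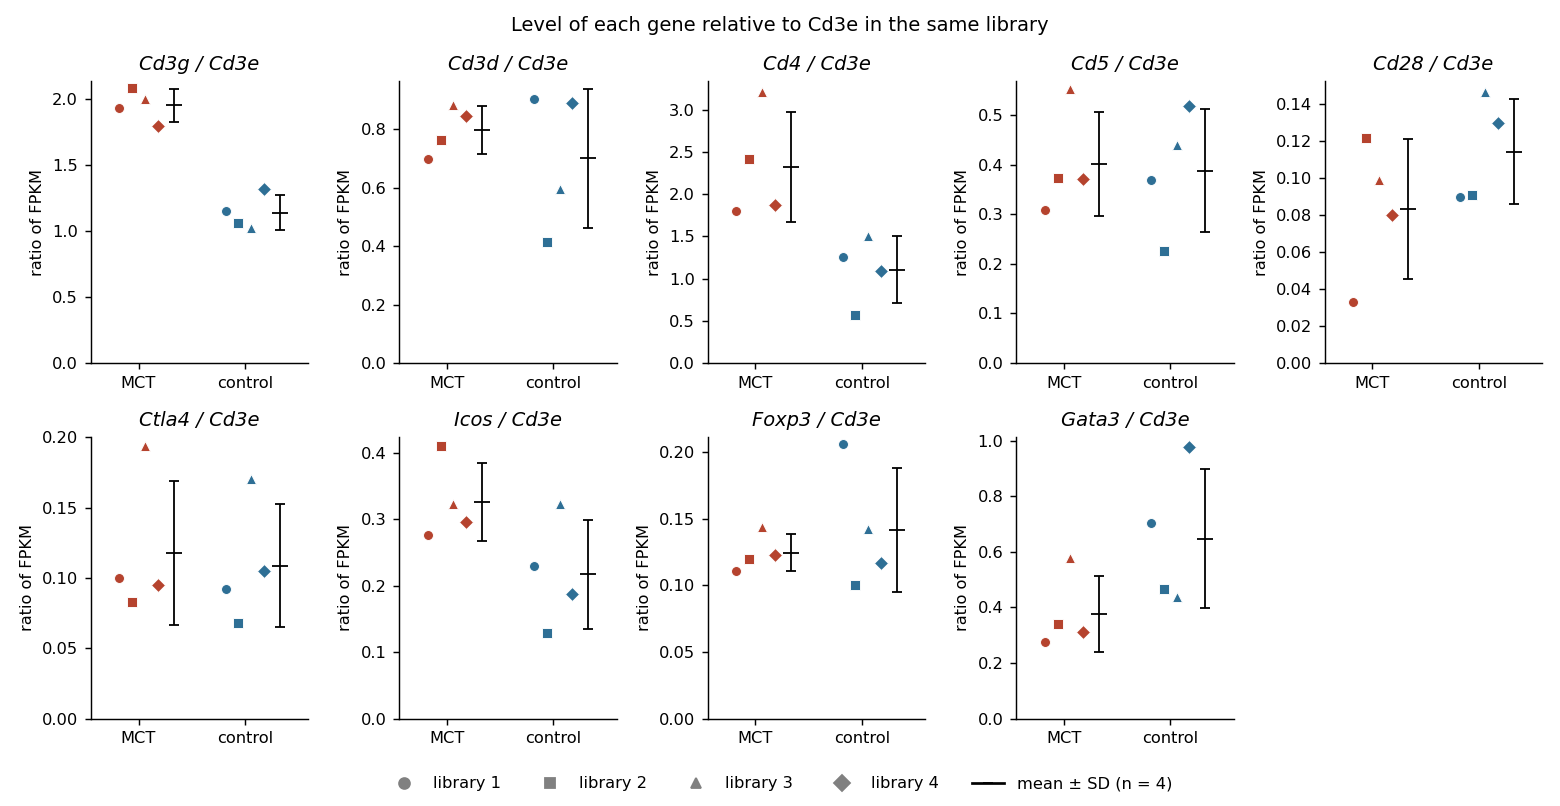
FPKM of each other gene divided by the FPKM of Cd3e in the same library, for 4 MCT and 4 control libraries, with the mean ± SD (n = 4) beside each group. The ratios of Cd3g (1.79 to 2.08 in MCT, 1.02 to 1.32 in control) and Cd4 (1.80 to 3.21 in MCT, 0.571 to 1.51 in control) do not overlap between the groups, while the others do.

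Cd4 (ENSRNOG00000016294, chromosome 4, 157383052 to 157408176, minus strand) encodes the coreceptor of helper T cells. In rats, unlike in mice, monocytes and macrophages commonly carry CD4 as well. Its level was 13.12, 13.92, 17.56 and 12.19 FPKM in MCT libraries 1 to 4, against 6.69, 3.52, 12.25 and 4.86 FPKM in control libraries 1 to 4. Control 3 reached just above the lowest MCT library, and the other 3 control libraries lay well below. With a log2 fold change of 1.05 (SE 0.34, 95% interval 0.27 to 1.83), Cd4 differed most of the members in size, but its edgeR adjusted p was 0.0615. It was 1.5 (adjusted p 0.00478) without control 3. DESeq2, limma on log2 FPKM at all 3 pseudocounts and the fit with a replicate block also called it, with adjusted p from 0.0103 to 0.0384. Over all its alternatives the adjusted p ran from 0.00478 to 0.167.

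Macrophage markers moved in the same direction as Cd4. Of 15 tested markers of macrophages and monocytes, 8 were higher and 0 lower, with a median log2 fold change of 1.07, and none of the 16 measured was at 0 in all libraries. C1qc, a chain of complement C1q made by macrophages, averaged 172 ± 48.2 FPKM in MCT and 48.0 ± 10.5 FPKM in control lungs, and C1qa averaged 176 ± 45.5 FPKM in MCT and 51.1 ± 14.0 FPKM in control lungs (SD, n = 4 each). The mean log2 CPM of the list was 6.14 to 6.84 in MCT and 5.21 to 5.95 in control libraries. Control 3 was the highest control library in both this score and Cd4, while the lowest was control 1 in the score and control 2 in Cd4. The highest MCT library was MCT 2 in the score and MCT 3 in Cd4. The summed level of the list overlapped, at 10100 to 18600 FPKM in MCT and 12500 to 17100 FPKM in control libraries. Most of that sum was 1 gene, Lyz2, at 9244 to 18076 FPKM in MCT and 12207 to 16833 FPKM in control libraries. The part of these cells in the Cd4 value was not tested.

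Cd5 (ENSRNOG00000020872, chromosome 1, 226770744 to 226791879, minus strand) encodes a receptor that dampens signalling through the T cell receptor, and some B cells carry it too. It had 2.25, 2.15, 3.02 and 2.41 FPKM in MCT libraries 1 to 4, against 1.96, 1.39, 3.57 and 2.31 FPKM in control libraries 1 to 4. The groups overlapped, and control 3 was the highest of the 8 values. Its log2 fold change was 0.09 (SE 0.28, 95% interval -0.54 to 0.71, edgeR adjusted p 0.865).

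Cd28, Ctla4 and Icos encode related receptors and lie in 1 cluster on chromosome 9, all on the plus strand: Cd28 (ENSRNOG00000010283) from 67546408 to 67571871, Ctla4 (ENSRNOG00000054129) from 67699379 to 67706065 and Icos (ENSRNOG00000046196) from 67763897 to 67785580. None of the 3 passed the test. Cd28, the main costimulatory receptor, had 0.24, 0.70, 0.54 and 0.52 FPKM in MCT libraries 1 to 4, against 0.48, 0.56, 1.19 and 0.58 FPKM in control libraries 1 to 4. MCT 1 was the lowest and control 3 the highest, and the values between them mixed. With 4 to 17 read pairs per library, its log2 fold change of -0.48 had a 95% interval of -1.55 to 0.59 (SE 0.48, edgeR adjusted p 0.536), which spans folds of 0.341 to 1.51.

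Ctla4, the inhibitory receptor, had 0.73, 0.48, 1.06 and 0.62 FPKM in MCT libraries 1 to 4, against 0.49, 0.42, 1.38 and 0.47 FPKM in control libraries 1 to 4. Control 3 stood far above the other control libraries, which lay together just under most of the MCT values. On the log2 scale the fold change was 0.05 (SE 0.47, 95% interval -1.01 to 1.11, edgeR adjusted p 0.953) and 0.64 without control 3.

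Icos, a costimulatory receptor that appears after activation, had 2.01, 2.36, 1.76 and 1.93 FPKM in MCT libraries 1 to 4, against 1.22, 0.79, 2.61 and 0.84 FPKM in control libraries 1 to 4. All 4 MCT libraries exceeded 3 of the control libraries, and control 3 exceeded all of them. Its fold change on the log2 scale was 0.56 (SE 0.38, 95% interval -0.30 to 1.42, edgeR adjusted p 0.347). Without control 3 it was 1.08 with an adjusted p of 0.0264, and over all its alternatives the adjusted p ran from 0.0264 to 0.576.

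Ligands that presenting and other cells show to T cell receptors of costimulation and inhibition were measured too. Of 10 tested in this list, which holds ligands of CD28, CTLA-4, ICOS and other receptors, 4 were higher and 0 lower, with a median log2 fold change of 0.46. Cd80 and Cd86 encode the ligands that CD28 and CTLA-4 share. Cd80 averaged 1.28 ± 0.271 FPKM in MCT and 0.258 ± 0.132 FPKM in control lungs (log2 fold change 2.31, SE 0.38, edgeR adjusted p 0.00348). Cd86 averaged 4.63 ± 0.497 FPKM in MCT and 2.28 ± 0.201 FPKM in control lungs (1.02, SE 0.16, adjusted p 0.00264; SD, n = 4 each). Pvr and Cd48, the other 2 that rose, bind receptors outside the CD28 family described here. Icoslg, the ligand of ICOS, had a log2 fold change of 0.20 and did not pass (adjusted p 0.165).

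Foxp3 (ENSRNOG00000011702, chromosome X, 15753175 to 15768522, minus strand) encodes the transcription factor that defines regulatory T cells. It had 0.81, 0.69, 0.79 and 0.80 FPKM in MCT libraries 1 to 4, against 1.10, 0.62, 1.15 and 0.52 FPKM in control libraries 1 to 4. The MCT values lay close together inside the control range. For Foxp3 the log2 fold change was -0.13 (SE 0.30, 95% interval -0.80 to 0.54, edgeR adjusted p 0.803). Relative to Cd3e it was 0.125 ± 0.0141 in MCT and 0.141 ± 0.0466 in control lungs (SD, n = 4 each). Relative to Cd4 it was 0.045 to 0.0656 in MCT and 0.0939 to 0.176 in control libraries, without overlap. Between the groups the log2 fold change of Cd4, the divisor, was 1.05, against the -0.13 of Foxp3. Cd4 is not a measure of helper T cells alone in rats, as said above, and the share of all genes with such a separation was not computed for Cd4. Foxp3 overlaps Ccdc22 on the opposite strand by 1751 bases, and since the sources used here do not say whether counting used strand, reads of the overlap cannot be told apart.

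Gata3 (ENSRNOG00000019336, chromosome 17, 72429618 to 72450681, plus strand) was the member that fell. Besides T cells, innate type 2 lymphoid cells use it. Its level was 2.02, 1.95, 3.16 and 2.03 FPKM in MCT libraries 1 to 4, against 3.75, 2.89, 3.55 and 4.36 FPKM in control libraries 1 to 4. Of the MCT libraries, 3 lay below every control library, while MCT 3 lay within the control range. This gave a log2 fold change of -0.67 (SE 0.20, 95% interval -1.11 to -0.22, edgeR adjusted p 0.0415), a fold of 0.629. The call was lost without MCT 1, MCT 2, MCT 4, control 1, control 3 or control 4 (adjusted p 0.0734, 0.113, 0.102, 0.0803, 0.0784 and 0.105), and over all alternatives the adjusted p ran from 0.00914 to 0.116 with every log2 fold change below 0. Its promoter window is shown as that of the member that fell, with the same marks as above.
Gata3, chr17:73553298-73553597, plus strand: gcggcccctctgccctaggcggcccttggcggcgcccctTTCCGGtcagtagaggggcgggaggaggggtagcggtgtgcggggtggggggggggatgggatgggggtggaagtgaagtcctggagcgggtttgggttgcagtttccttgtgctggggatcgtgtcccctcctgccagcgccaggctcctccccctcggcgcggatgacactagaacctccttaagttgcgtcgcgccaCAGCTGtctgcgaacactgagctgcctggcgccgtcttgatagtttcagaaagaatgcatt

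The window held the reverse complement of CCGGAA, a motif that 15.0% of windows hold on either strand. It also held the E-box named above. Within the groups, the Pearson correlation of deviations of Gata3 over the 8 libraries was -0.53 with Cd3e, -0.49 with Cd3g and 0.28 with Cd3d. Gata2, a related factor of mast cells and endothelium, averaged 36.2 ± 3.49 FPKM in MCT and 89.0 ± 9.21 FPKM in control lungs (log2 fold change -1.30, SE 0.10, edgeR adjusted p 0.00022). Of 9 tested endothelial markers, 3 fell between the groups, as Gata3 did, 1 rose and 5 were not called. Their summed level was 449 to 587 FPKM in MCT and 723 to 759 FPKM in control libraries. In MCT libraries 1 to 4 the endothelial score was 7.5, 6.01, 7.31 and 7.41. MCT 2 was the lowest MCT library in both this score and Gata3. MCT 3 was the highest in Gata3, and MCT 1 was the highest in the score. Tek, an endothelial receptor for angiopoietins, fell by 2.61 on the log2 scale (SE 0.11), and Emcn rose by 1.15 (SE 0.17). The part of these cells in the Gata3 value was not tested.

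**Figure D3:**
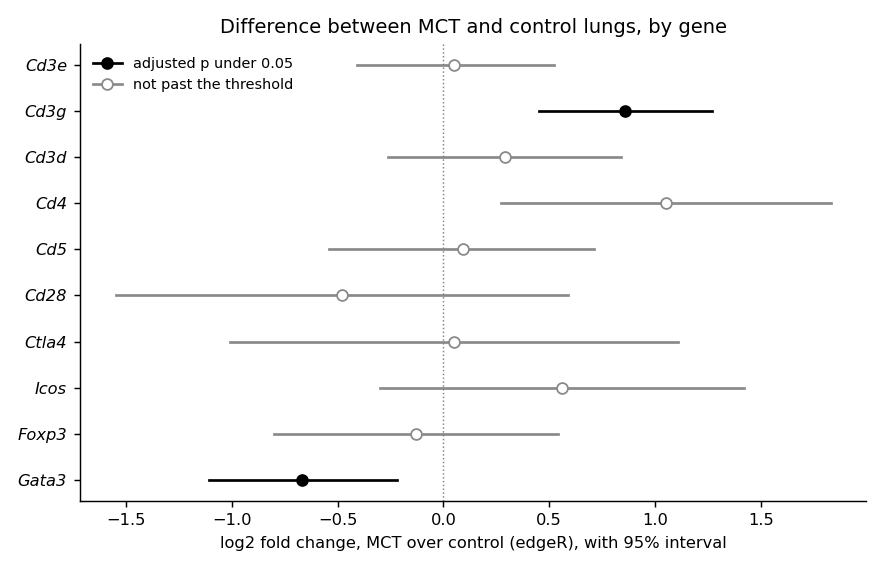
Log2 fold change of each of the 10 genes, MCT over control, from edgeR's quasi-likelihood test, with its 95% interval (4 libraries per group). Filled points passed an adjusted p of 0.05: Cd3g at 0.86 and Gata3 at -0.67, while the interval of Cd4 lies above 0 with an adjusted p of 0.0615.

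Ordered by mean FPKM, the members ran in MCT lungs from Cd4 (14.2) through Cd3g (12.2), Cd3e (6.25), Cd3d (4.95), Cd5 (2.46), Gata3 (2.29), Icos (2.01), Foxp3 (0.772) and Ctla4 (0.723) to Cd28 (0.5). Among neighbours in this order, the ranges of Cd3g and Cd3e, of Cd3d and Cd5, and of Icos and Foxp3 did not overlap, while all the other neighbours did. In control lungs the order ran from Cd4 (6.83) through Cd3g (6.70), Cd3e (6.02), Cd3d (4.04), Gata3 (3.64), Cd5 (2.31), Icos (1.36), Foxp3 (0.848) and Cd28 (0.703) to Ctla4 (0.690), and all neighbours overlapped. Relative to the mean, the spread between libraries (coefficient of variation) was wider in control lungs for every member except Gata3. It was 34.2% in MCT and 66.8% in control lungs for Ctla4, 12.5% in MCT and 62.4% in control lungs for Icos, and 16.6% in MCT and 56.2% in control lungs for Cd4. Control 3 was the highest control library in each of these 3, as in every other member except Gata3. The same comparison of spread over all genes tested is not given here.

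In the rest of the T cell receptor machinery, 3 of 18 tested genes rose and 1 fell, with a median log2 fold change of 0.06. Lcp2, an adaptor below the receptor that mast cells and other myeloid cells also use, averaged 14.0 ± 2.17 FPKM in MCT and 6.98 ± 1.55 FPKM in control lungs (log2 fold change 1.0, SE 0.17, edgeR adjusted p 0.00364). Rhoh, a GTPase of blood cells, averaged 9.35 ± 0.396 FPKM in MCT and 5.35 ± 0.840 FPKM in control lungs (0.80, SE 0.14, adjusted p 0.0045; SD, n = 4 each). Prkcq, a kinase of T cell activation, rose by 1.01, and Txk, a kinase of T and NK cells, fell by 0.97, a call lost without MCT 2, MCT 4, control 3 or control 4. The kinases Lck and Zap70, which act first below the receptor, had log2 fold changes of -0.28 (95% interval -0.68 to 0.11) and -0.23 (95% interval -0.85 to 0.39). Of 10 mast cell markers, 8 rose between the groups, as Lcp2 did, and 2 fell. The 2 that fell were Gata2 (log2 fold change -1.30) and Kit (-0.96). Their summed level was 249 to 1010 FPKM in MCT and 150 to 168 FPKM in control libraries. Lcp2 was highest in MCT 2 (17.21 FPKM) and in control 3 (9.29 FPKM) of their groups. The mast cell score was 4.9, 6.32, 6.25 and 6.53 in MCT libraries 1 to 4. In control libraries 1 to 4 it was 3.06, 2.81, 2.36 and 2.26. The macrophage and monocyte score was 6.14, 6.84, 6.45 and 6.45 in MCT libraries 1 to 4. In control libraries 1 to 4 that score was 5.21, 5.33, 5.95 and 5.59. Ms4a2, a chain of the IgE receptor, averaged 32.5 ± 12.7 FPKM in MCT and 0.815 ± 0.218 FPKM in control lungs. The part of mast cells or of macrophages in the Lcp2 value was not tested.

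**Figure D4:**
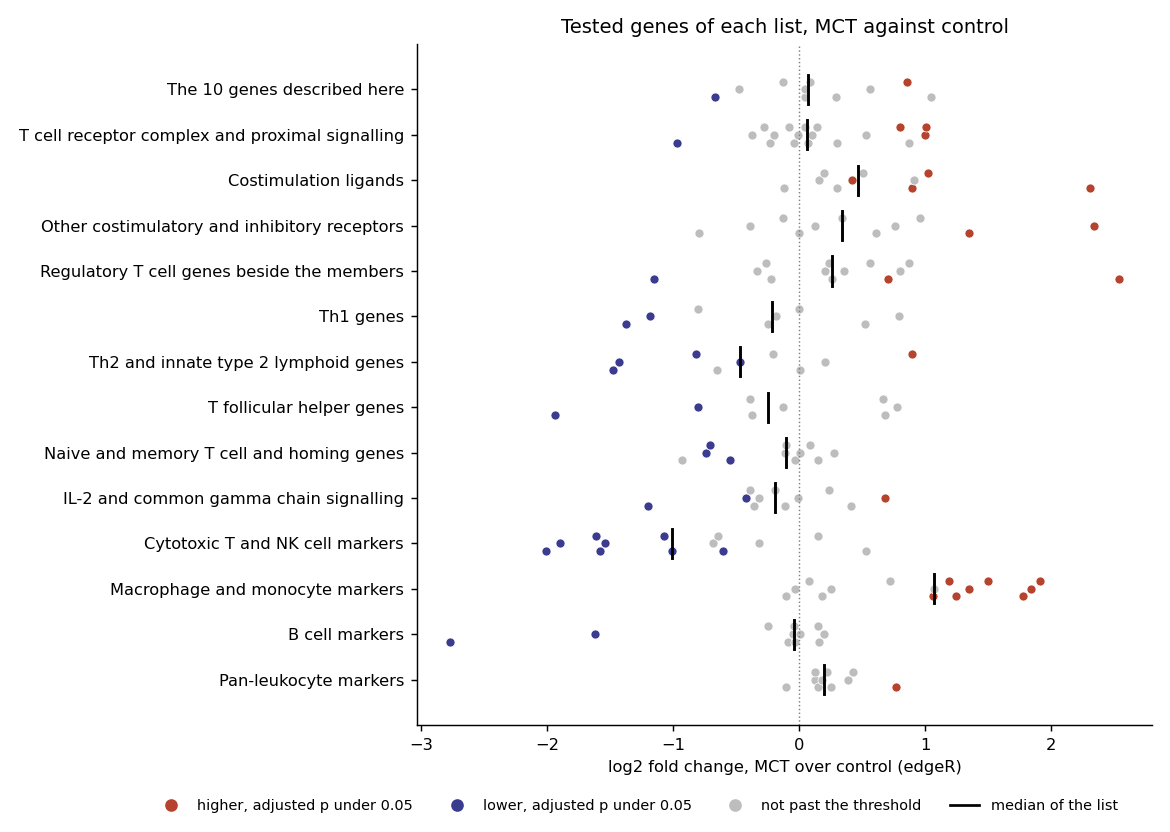
Log2 fold change, MCT over control, of each tested gene in the 10 genes described here and in other lists of lymphoid and myeloid genes (4 libraries per group, edgeR); points are genes, colour gives the call, and the black line is the median of the list. The 10 genes centre on 0.07, the cytotoxic T and NK cell list on -1.01 and the macrophage list on 1.07.

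Other receptors of T cells were called in 2 of 11 cases, both higher, with a median log2 fold change of 0.34. These were Cd200r1, an inhibitory receptor also found on myeloid and mast cells, at 5.31 ± 1.29 FPKM in MCT and 1.04 ± 0.382 FPKM in control lungs (2.34, SE 0.30), and Havcr2, an inhibitory receptor of T cells and macrophages (1.35, SE 0.37, edgeR adjusted p 0.0305). Havcr2 lost its call without MCT 2, MCT 3, control 1, control 2 or control 4. Of 13 other genes linked to regulatory T cells, 2 rose, 1 fell and the median was 0.26. Il1rl1, the IL-33 receptor, which mast cells carry in abundance and which is also in the mast cell list, averaged 7.24 ± 3.73 FPKM in MCT and 1.24 ± 0.257 FPKM in control lungs (2.54, SE 0.48; not called with the replicate block), and Capg, an actin capping protein that macrophages also make, rose by 0.71 (SE 0.14). Lrrc32, which holds TGF-beta on regulatory T cells and is also endothelial, fell by 1.15, a call lost without MCT 2, MCT 3, MCT 4 or control 2. Il2ra, the IL-2 receptor chain typical of regulatory T cells, had a log2 fold change of 0.56 (95% interval -0.20 to 1.31) and did not pass.

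Among helper fates, the Th1 list had 0 of 8 tested members higher and 2 lower (median -0.21). Tbx21, the Th1 transcription factor that NK cells also use, averaged 2.5 ± 0.648 FPKM in MCT and 5.65 ± 0.996 FPKM in control lungs (log2 fold change -1.18, SE 0.22, edgeR adjusted p 0.00623). Il12rb2, a chain of the IL-12 receptor, fell by 1.37 (SE 0.37), a call lost without MCT 1, MCT 2, MCT 4, control 3 or control 4, and 2 Th1 members were higher without control 3. In the Th2 and innate type 2 list, 1 of 9 was higher and 4 were lower (median -0.47). Il4r, the IL-4 receptor of many cell types, averaged 47.9 ± 4.93 FPKM in MCT and 84.4 ± 12.3 FPKM in control lungs (-0.82, SE 0.12), and Maf, a factor of helper T cells and macrophages, rose by 0.90 (SE 0.16). Il17rb, Stat6 and Klrg1 were the others that fell. In the follicular helper list 0 of 8 were higher and 2 lower (median -0.25), while 6 did not pass and 3 of the 8 were above 0. Tox2 averaged 2.14 ± 0.672 FPKM in MCT and 8.17 ± 1.26 FPKM in control lungs. Bcl6, the defining factor of that fate, fell by 0.80 (SE 0.18). Which cells gave the Tox2 and Bcl6 values was not tested.

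The cytokines that define these fates were at or near 0, with no library above 0.55 FPKM (Il4 in control 3). Il2, Il9, Il17a and Il21 were listed at 0 in all 8 libraries, as was Gpr83, a receptor of regulatory T cells, and Ifng, Il4, Il5, Il13, Il17f, Il22 and Il10 did not pass the filter on low counts. In the list of naive, memory and homing genes 0 of 11 were higher and 3 lower (median -0.10), led by S1pr1 at 69.9 ± 10.5 FPKM in MCT and 116 ± 17.5 FPKM in control lungs. Cxcr4 fell by 0.55 (SE 0.12), and both of these are also endothelial. Tcf7, a transcription factor of naive T cells, fell by 0.71 (SE 0.16). In IL-2 and common gamma chain signalling 1 of 11 was higher and 2 lower (median -0.19). Il2rg, the chain shared by several cytokine receptors, averaged 22.0 ± 1.4 FPKM in MCT and 13.7 ± 1.1 FPKM in control lungs (0.68, SE 0.08). Il2rb, a chain abundant on NK and cytotoxic T cells, averaged 8.09 ± 0.427 FPKM in MCT and 18.7 ± 6.33 FPKM in control lungs (-1.20, SE 0.21).

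Of 13 tested markers of cytotoxic T and NK cells, 8 were lower and 0 higher, with a median log2 fold change of -1.01. Prf1, the perforin gene, averaged 6.52 ± 1.54 FPKM in MCT and 26.2 ± 4.11 FPKM in control lungs, and Gzma, a granule protease, averaged 5.94 ± 1.24 FPKM in MCT and 22.1 ± 4.33 FPKM in control lungs (SD, n = 4 each). Cd8a, the coreceptor of cytotoxic T cells, fell by 1.01 (SE 0.22, edgeR adjusted p 0.0134), while Cd8b, the other chain of that coreceptor, did not pass (log2 fold change 0.15, SE 0.40, adjusted p 0.835). Klrk1, an activating receptor of NK and cytotoxic T cells, did not pass either (0.53, SE 0.39). The CD3 genes are carried by these T cells too, so Cd3e, Cd3g and Cd3d stand for both kinds. Of 11 B cell markers 0 were higher and 2 lower (median -0.04), Bank1 at 0.733 ± 0.247 FPKM in MCT and 5.05 ± 0.885 FPKM in control lungs and Spib at 2.95 ± 0.836 FPKM in MCT and 9.10 ± 2.78 FPKM in control lungs. Of 10 pan-leukocyte markers 1 was higher, Cd53 (0.77, SE 0.17), with a median of 0.20, and without MCT 1 or control 3 the number higher was 2. In the airway epithelial list 0 of 7 tested were called in either direction, and Scgb1a1, the club cell secretoglobin, had a log2 fold change of 0.27 (SE 0.40). In the alveolar list 1 of 10 rose and 4 fell, among them Abca3 (-0.75, SE 0.12) and Rtkn2 (-0.81, SE 0.17).

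The genes whose deviations from the group means were most like those of the 3 CD3 genes together were Hdac5, Slc44a2, Git1, Snx11 and Dtx2, with Pearson correlations of 0.988, 0.977, 0.975, 0.975 and 0.974 over the 8 libraries. The 5 were the highest among the tested genes that were ranked, over few libraries, and the points share depth and library. The ranking left out the members and all genes whose name starts with AABR, ENSRNOG, LOC, RGD, Rn or AC. Between the groups, Hdac5 (-0.44, SE 0.08), Slc44a2 (-0.39, SE 0.08) and Git1 (-0.36, SE 0.09) were lower in MCT, and Snx11 (0.11) and Dtx2 (-0.30) did not pass edgeR's threshold.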

How the data were processed

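RNA of lung tissue was sequenced in 4 MCT and 4 control libraries. The submitters' processing notes name cutadapt 1.9, HISAT2 2.0.4, StringTie 1.3.4d, edgeR and the build Rnor_6.0, without order, settings or use of strand. The deposited table gives an estimated count and an FPKM value per gene and library, per the file headers. Estimated counts were deposited as whole numbers, so rounding changed none. Their low values pile up at a spacing of about 3.71 units, taken as 1 read pair. All value columns matched a library, and libraries of the same group differed by a chi-square per gene of at least 15.9, so none was taken as a repeat of another.

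From the estimated counts, edgeR 4.0.16 (R 4.3.3; filterByExpr with minimum count 10, TMM scaling, robust quasi-likelihood test, two-sided) compared MCT with control over 16715 genes, without a block. Calls needed an adjusted p (Benjamini-Hochberg) under 0.05. Log2 fold changes are MCT over control, with SE and 95% interval from the test. Levels are deposited FPKM, mean ± SD. Scores are mean log2 CPM (prior count 2). The test was tried on simulated data. The spread between libraries, not the read pairs, is the error, and counting intervals were not used.

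The members and the lists were chosen with earlier results of these data known. The text names the 10 members, the 2 called genes of smallest p in each list or the most abundant tested one where none was called, and the 5 genes most like the CD3 genes; other list genes are examples chosen after their values were seen. The result of 1 list is not reported here. Alternatives were DESeq2 1.42.0, limma 3.58.1 on log2(FPKM + 0.5, 0.1 or 1), other scaling and filters, read-pair units, a replicate block, a threshold of 0.01 and left-out libraries. Promoters come from RefSeq on GRCr8 and matched 9 of the 10 members by symbol.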

Additional observations from a re-analysis of the deposited data

Results flagged for a closer look

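For 9 of the 96 sets of 4 libraries checked (each member and each gene the naming rule picked, in each group), a single library stood clear of its group, and chance flags about 1 in 20 sets, here 4.8. The value given is the distance on log2 CPM between that library and the closest of the other 3, divided by the whole range. Among the members it was 0.92 for Ctla4 (control 3 at 1.38 FPKM, the others at 0.42 to 0.49) and 0.879 for Gata3 (MCT 3 at 3.16 FPKM, the others at 1.95 to 2.03). Control 3 was also the library set apart for Cd53 (0.85; 26.8 FPKM against 17.1 to 18.8), Il4r (0.858; 103 FPKM against 76.6 to 80.9) and Lcp2 (0.833; 9.29 FPKM against 6.06 to 6.44), each time as the highest control library. MCT 2 was the highest MCT library for Lcp2 (0.884; 17.2 FPKM against 12.5 to 13.2). MCT 1 was the lowest MCT library for Il1rl1 (0.965; 1.66 FPKM against 8.80 to 9.32) and Ms4a2 (0.92; 13.7 FPKM against 37.3 to 41.4). Control 2 was the lowest control library for Spib (0.896; 4.94 FPKM against 10.2 to 10.7).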

How the results depend on the processing

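Cd3g stayed higher at an adjusted p under 0.05 in 18 of 19 alternatives (log2 fold change 0.73 to 0.98) and missed a threshold of 0.01 (adjusted p 0.0109). The number of members higher was 2 with DESeq2, with limma at each pseudocount and with the replicate block, and 0 at 0.01. Leaving out each library gave 1 to 3, with the 3 without control 3 (Cd3g, Cd4 and Icos). The number of members lower was 0 with limma at each pseudocount, with no filter, with the replicate block, at 0.01 and without MCT 1 and control 1, and 0 to 1 when each library was left out. Over all genes, 807 were higher and 671 lower at 0.01, and leaving out each library gave 1191 to 1946 higher and 975 to 1730 lower, both lowest without MCT 2. Members near 0 changed sign when a library was left out: Cd3e ran from -0.07 to 0.23, Cd5 from -0.09 to 0.38, Ctla4 from -0.18 to 0.64 and Foxp3 from -0.31 to 0.05, as did Scgb1a1 from -0.21 to 0.55. Without MCT 1 and control 1 both Cd3e and Ctla4 stood at -0.10. The cause of these changes was not tested. Of the 35 called genes beside the members that the naming rule picked, 10 lost the call in at least 1 alternative, 5 of them only at 0.01. Same-numbered libraries deviated together weakly or not at all (correlations 0.11, 0.02, -0.02 and -0.08), and only number 1 correlated best with its own. The labels do not say whether the numbers pair the libraries, and such correlations cannot exclude it. The replicate block gave 1436 genes higher and 1271 lower. Few read pairs limit Cd28 and Ctla4 most. Without MCT 1 the number of endothelial markers lower was 5, and the alveolar list had 2 lower without MCT 3, MCT 4, control 2 or control 3 and 0 higher without control 4. The airway list had 1 lower without MCT 1. The IL-2 list had 1 lower without MCT 2, MCT 3, control 2, control 3 or control 4.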
